A study of Mus musculus with 9 samples.

Results

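Ovaries of LXR double-knockout mice that carried the Amh-LXRb transgene were compared with ovaries of the same knockout without it. The members were every gene of the deposited expression table with at least 0.5 RPKM (read density scaled to gene length and library size) in at least 3 of the 6 libraries of these groups, which kept 18530 of 54838 genes. The 3 libraries labelled DKO LXR (DKO below) and the 3 labelled DKO LXR TG-AMH-LXRb (DKO_TG) were total RNA of whole ovary from adult mice, taken 40 h after induction with PMSG, a gonadotropin that makes follicles grow. Both groups carried the LXR double knockout, so the transgene was the labelled difference between them. The 3 wild-type libraries (WT), of the same tissue, age and treatment, entered the fit and are given as a reference. Nothing in the labels says that libraries of a group came from different animals, and p-values here measure library-to-library spread, which may be technical. The sources used here do not give the transgene's promoter sequence, founder line, insertion site or copy number, nor the strain background of the groups. An effect of the transgene's product therefore cannot be told apart from any difference of insertion site or background that all DKO_TG libraries share. Values in each series of 3 run from replicate 1 to replicate 3.

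LXRα and LXRβ, encoded by Nr1h3 and Nr1h2, are nuclear receptors that bind oxysterols and, with RXR, switch on genes of cholesterol efflux, lipoprotein remodelling and fatty acid synthesis. In macrophages they also restrain inflammatory genes. AMH, anti-Müllerian hormone, is made in the female by granulosa cells of growing follicles, and its promoter is used to direct transgenes to those cells or to Sertoli cells of the testis.

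Nr1h2 read 7.79, 6.02 and 5.79 RPKM in DKO, 5.14, 5.96 and 5.90 in DKO_TG and 22.5, 18.7 and 15.2 in WT. The transgenic libraries lay within or just under the range of the knockout libraries and all 6 lay under WT (log2 change −0.18 ± 0.16 SE, adjusted p = 0.619 in limma). Nr1h3 read 0.590, 1.11 and 0.717 RPKM in DKO and 0.538, 0.824 and 0.647 in DKO_TG (log2 change −0.15 ± 0.17 SE, adjusted p = 0.721 in limma). Amh read 14.1, 6.97 and 13.5 RPKM in DKO and 10.3, 10.3 and 8.79 in DKO_TG (log2 change −0.17 ± 0.27 SE, adjusted p = 0.802 in limma). The groups overlapped for both. The gene-level value of Nr1h2 therefore did not separate the transgenic libraries from the knockout libraries, and whether reads of the transgene would be counted under that gene was not tested.

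Recovered read totals, in 1e+06 reads, ran from 46.1 to 59.4 in DKO and from 40.1 to 47.6 in DKO_TG. The DKO_TG libraries were the more alike: the correlation of log2 values across genes, which are not independent replicates, was 0.988 to 0.992 within DKO_TG, 0.967 to 0.974 within DKO and 0.962 to 0.975 between the groups. The median standard deviation of a gene on the log2 scale was 0.0939 in DKO_TG, 0.189 in DKO and 0.156 in WT. Markers of the ovary were present in both groups: the summed level of 6 granulosa cell markers was 946 to 1773 RPKM in DKO and 1397 to 1684 in DKO_TG. Pax8 and Foxj1 of the oviduct and Adipoq and Cfd of fat were under 0.5 RPKM in all 6 libraries, but other markers of both tissues were present. The summed level of 4 oviduct markers, 2 of them tested, was 9.25 to 18.8 RPKM in DKO and 8.05 to 11.05 in DKO_TG. For 4 fat markers, 2 of them tested, it was 4.92 to 9.35 RPKM in DKO and 12.8 to 16.3 in DKO_TG, without overlap.

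Of the 18530 genes, 93 were higher and 326 lower in DKO_TG at an adjusted p under 0.05 (limma on log2 of RPKM plus 0.5, Benjamini-Hochberg adjustment), which is 0.502% and 1.76%, or 2.26% together. The higher genes moved by 0.35 to 2.17 on the log2 scale with a median of 0.78, and the lower genes by −0.38 to −6.01 with a median of −1.02, against a median of 0.03 over all genes tested. A change of more than 1 in size was seen for 34 of the higher and 172 of the lower genes. The libraries of the groups did not overlap for any of the 419 genes, where 12.2% of all genes lay wholly higher and 12.1% wholly lower. At an unadjusted p under 0.05, 6.92% of genes were higher and 8.99% lower. The log2 change was positive in 10329 and negative in 8201 of the 18530 genes, the reference for counts of signs below. The filter let in 55 genes that reached 0.5 RPKM in DKO_TG libraries only, of which 12 were called, and 122 that reached it in DKO libraries only, of which 45 were called; genes admitted this way had to differ. A single signed value given for a gene below is its log2 change of DKO_TG against DKO.

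When DKO replicate 1, 2 or 3 was left out, limma called 321, 214 or 124 of the 419 genes. When DKO_TG replicate 1, 2 or 3 was left out, it called 41, 45 or 34. It called 301, 200 and 239 of them without WT replicate 1, 2 and 3, and 53 in the fit of 6 libraries, without WT (57 genes in all, 0.308%). Every one of the 419 kept its direction in each of these fits, which was fixed in advance because the groups did not overlap for any of them. Over 20 alternatives, which leave aside the restriction to protein-coding genes and the fit on recovered reads, 25 genes were called throughout, 18 lower and 7 higher.

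**Figure D1:**
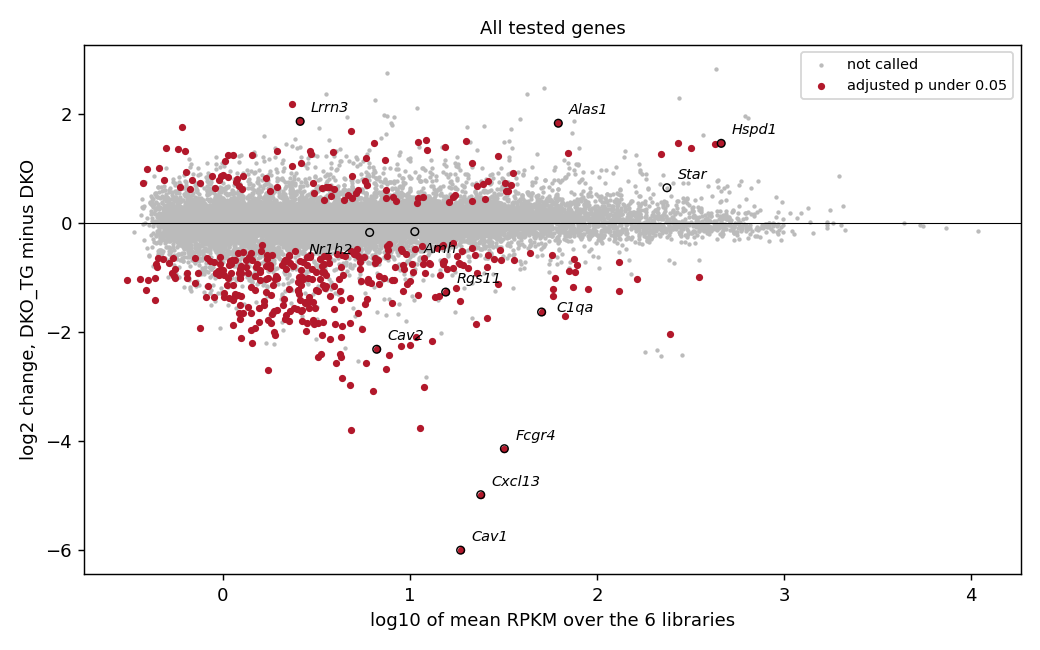
Each point is 1 of the 18530 genes, with the log10 of its mean RPKM over the 6 libraries on the horizontal axis and the log2 change of DKO_TG against DKO on the vertical axis; the 93 genes called higher and the 326 called lower are red, and circles mark named genes. Cav1 lies alone at −6.01, and no gene called higher exceeds 2.17.

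Cav1 had the largest change. It encodes caveolin-1, the membrane protein that shapes caveolae, the small pits of the plasma membrane found in endothelial, smooth muscle and fat cells. The gene lies at chr6:17306335-17341452 on the plus strand (mm10). It read 39.8, 36.1 and 36.0 RPKM in DKO, 0.125, 0.0490 and 0.0874 in DKO_TG and 34.1, 38.0 and 42.2 in WT, so every DKO_TG library lay far under every other library. In recovered reads these were 7007, 7639 and 8113 in DKO and 21, 7 and 15 in DKO_TG. The log2 change was −6.01 ± 0.10 SE (95% interval −6.24 to −5.78, adjusted p = 1.56e-08 in limma), and the ratio of the group means was 428-fold. Cav1 was called under every alternative, and its highest adjusted p with 1 library left out was 9.39e-07 in limma. With all DKO_TG libraries under 0.5 RPKM, it passed the filter through DKO alone.

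Cav2, whose protein caveolin-2 pairs with caveolin-1, starts at −25.15 kb from the Cav1 start, on the same strand. It read 12.8, 11.4 and 10.1 RPKM in DKO, 1.82, 1.89 and 1.91 in DKO_TG and 17.5, 16.1 and 19.2 in WT, without overlap (log2 change −2.32 ± 0.10 SE, adjusted p = 3.94e-05 in limma, a 6.10-fold ratio of means), and was called under every alternative. The sequences before both start sites are shown because these adjoining genes fell together. They are the 250 bases upstream of the RefSeq starts, on the plus strand, at chr6:17306085-17306334 for Cav1 and chr6:17280935-17281184 for Cav2 (GRCm38.p6, from RefSeq); the capitals mark the GC box, GGGCGG on either strand.
Cav1 upstream: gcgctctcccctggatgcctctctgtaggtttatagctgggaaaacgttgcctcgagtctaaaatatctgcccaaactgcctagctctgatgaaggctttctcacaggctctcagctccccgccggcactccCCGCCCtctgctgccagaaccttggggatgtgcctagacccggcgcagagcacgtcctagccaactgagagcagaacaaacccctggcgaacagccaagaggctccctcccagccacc
Cav2 upstream: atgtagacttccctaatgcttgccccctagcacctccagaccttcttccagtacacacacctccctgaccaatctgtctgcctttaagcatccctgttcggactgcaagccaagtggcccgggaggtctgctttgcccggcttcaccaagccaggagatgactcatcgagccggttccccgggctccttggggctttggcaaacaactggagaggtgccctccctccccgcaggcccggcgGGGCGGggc
Each window held 1 GC box, a short motif bound by Sp1-type factors, which 32.7% of 32851 such windows of the mouse genome held.

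The fall extended unevenly to the neighbours. Of 11 genes tested in the megabase on either side of the Cav1 start, 4 were lower. D830026I12Rik, a long intergenic RNA that starts at −108.6 kb, read 0.611, 0.555 and 0.608 RPKM in DKO and 0, 0.0342 and 0.0380 in DKO_TG (log2 change −1.06 ± 0.12 SE, adjusted p = 0.00689 in limma). Gm4876, an RNA annotated antisense to Tes, read 0.754, 0.649 and 0.725 RPKM in DKO and 0.0670, 0.150 and 0.0394 in DKO_TG (log2 change −1.05 ± 0.14 SE, adjusted p = 0.0140 in limma); it overlaps Tes on the other strand and its reads cannot be told apart from those of Tes where the strand of counting is not stated. Tes itself (−0.43, adjusted p = 0.308 in limma) and the receptor gene Met (−0.53, adjusted p = 0.126) did not pass, and Capza2, 329.9 kb downstream, was at −0.11. D830026I12Rik, Gm4876 and Met passed the filter through DKO alone. With 1 library left out, limma no longer called Gm4876 without DKO_TG replicate 1 or 3 (adjusted p up to 0.0700). No call was made either for Gm4876 in the fit of 6 libraries.

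The other genes of the caveola list, chosen after the Cav1 values were known, did not pass: 2 of 8 tested were lower, Cav1 and Cav2, with a list median of −0.15. Cavin1, which coats caveolae, read 77.9, 80.4 and 90.5 RPKM in DKO and 94.6, 93.5 and 92.7 in DKO_TG (log2 change 0.18). Cavin3 was at −0.22 and Ehd2, an ATPase at the neck of caveolae, at −0.20.

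**Figure D2:**
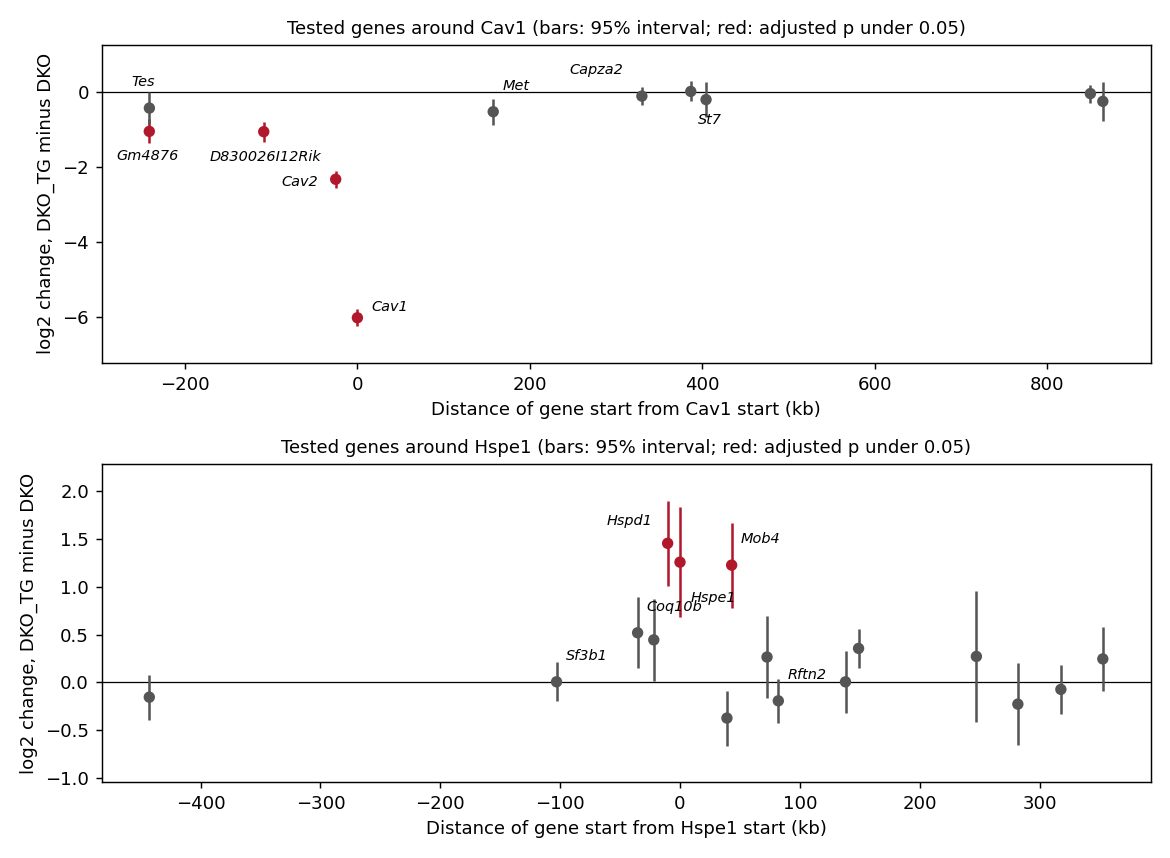
The log2 change of DKO_TG against DKO, with its 95% interval, of each gene tested around Cav1 and around Hspe1, against the distance in kilobases from the start of that gene; red points passed the test. Around Cav1 the change is −6.01 at the gene, −2.32 at Cav2 and between −0.25 and 0.01 from Capza2 onward, and around Hspe1 the 3 called genes are Hspd1, Hspe1 and Mob4.

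Another pair of adjoining genes was higher in DKO_TG. Hspd1 and Hspe1 encode HSP60 and HSP10, the chaperonin and co-chaperonin that fold proteins in the mitochondrial matrix, and are transcribed away from each other. Hspd1, at chr1:55077835-55088243 on the minus strand, read 237, 300.4 and 209 RPKM in DKO, 688, 682 and 654 in DKO_TG and 1016, 756 and 658 in WT; all DKO_TG libraries lay above all DKO libraries (log2 change 1.45 ± 0.20 SE, adjusted p = 0.0140 in limma, 2.71-fold). Hspe1 read 106, 174 and 115 RPKM in DKO, 305, 327 and 292 in DKO_TG and 476, 309 and 255 in WT, again without overlap (log2 change 1.26 ± 0.25 SE, adjusted p = 0.0448 in limma). The annotated genes overlap on opposite strands, so the reads at their shared end cannot be assigned to one of them here.
The bases below are shown because they lie between a RefSeq start of Hspd1 and the Hspe1 start: chr1:55087933-55088131, plus strand (GRCm38.p6, from RefSeq). The Hspd1 start used was the RefSeq start with the lowest coordinate, and another RefSeq start of Hspd1 lies outside these bases. The annotated Hspd1 gene begins at 55088243, past the Hspe1 start at 55088132, so from there no bases lie between the genes. The capitals mark TTCNNGAA, the core of a heat shock element.
Hspd1-Hspe1: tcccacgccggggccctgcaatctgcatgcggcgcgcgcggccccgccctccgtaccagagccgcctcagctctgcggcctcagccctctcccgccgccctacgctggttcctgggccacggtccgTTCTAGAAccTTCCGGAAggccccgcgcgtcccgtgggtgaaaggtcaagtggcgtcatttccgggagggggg
It held 2 such matches, where 7.17% of the 32851 upstream windows of 250 bases held at least 1.

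Mob4, an adaptor of the striatin phosphatase complex that starts 43.1 kb past the Hspe1 start, read 18.7, 21.0 and 13.7 RPKM in DKO, 40.9, 44.2 and 39.9 in DKO_TG and 51.9, 38.2 and 31.9 in WT (log2 change 1.23 ± 0.20 SE, adjusted p = 0.0207 in limma). The groups did not overlap. Coq10b, on the other side, was at 0.52 (adjusted p = 0.163 in limma) and Rftn2 at −0.19, neither called. Processed pseudogenes of the chaperonin genes were also called higher: Hspd1-ps3 at 1.46, Hspd1-ps5 at 1.45 and Hspe1-ps2 at 1.28. They are near copies of the parent genes, so their values are uncertain. Of 16 mitochondrial and cytosolic chaperone genes, a list added after these values were seen, Hspd1 and Hspe1 passed and none was lower (median 0.14). Hspa9, the HSP70 of the mitochondrial matrix, was at 0.41 (adjusted p = 0.194 in limma), and 0 of 8 subunits of the cytosolic chaperonin CCT passed at an adjusted or an unadjusted p under 0.05 (median 0.21). Limma, with 1 library left out, did not call Hspd1 without any single DKO_TG library (adjusted p up to 0.0700), Hspe1 without WT replicate 2 or 3, DKO replicate 1 or 3 or any single DKO_TG library (adjusted p up to 0.156), and Mob4 without DKO replicate 3 or any single DKO_TG library (adjusted p up to 0.0922). Calls also ended for Hspe1 without a filter on low values, and Hspe1 and Mob4 in the fit of 6 libraries.

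Other genes were higher in DKO_TG than in DKO and are given one by one. Lrrn3, a leucine-rich repeat membrane protein known from neurons, read 1.02, 0.885 and 0.637 RPKM in DKO, 4.09, 4.40 and 4.54 in DKO_TG and 10.1, 9.17 and 7.19 in WT; the DKO_TG libraries lay above all DKO and under all WT libraries (log2 change 1.86 ± 0.14 SE, adjusted p = 0.00113 in limma). It was called under every alternative. Gm31520, a gene model without a known product, had the largest rise (0.607, 0.641 and 0.373 RPKM in DKO and 3.72, 4.31 and 4.43 in DKO_TG, log2 change 2.17 ± 0.17 SE, adjusted p = 0.00113 in limma) and was likewise called throughout. Alas1, which encodes the first and rate-limiting enzyme of heme synthesis outside red cells, read 19.1, 36.5 and 27.9 RPKM in DKO, 101, 96.3 and 92.6 in DKO_TG and 332, 129.8 and 122 in WT (log2 change 1.82 ± 0.37 SE, adjusted p = 0.0459 in limma). The DKO libraries of Alas1 were the lowest of all 9, and 4930500F10Rik overlaps the gene on the other strand. Of 12 genes of heme synthesis and breakdown, listed after this value was seen, only Alas1 passed (median −0.03).

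Tubb3, the neuronal β-tubulin, read 5.63, 6.50 and 8.63 RPKM in DKO and 19.4, 17.4 and 17.1 in DKO_TG (log2 change 1.33 ± 0.26 SE, adjusted p = 0.0400 in limma) and was the 1 gene of 6 tested in the neuronal and synaptic list to pass. All 6 were positive, with a median of 0.41, but 1 was negative with TPM. Rbfox3, Stmn2 and Syt1, which define neurons, were under 0.5 RPKM in all 6 libraries. Cyfip2, a subunit of the complex that drives branched actin, read 10.96, 6.76 and 7.501 RPKM in DKO and 22.3, 22.7 and 22.3 in DKO_TG (log2 change 1.4 ± 0.21 SE, adjusted p = 0.0176 in limma). Slc38a1, a carrier of glutamine, read 1.41, 1.28 and 1.71 RPKM in DKO and 4.39, 4.20 and 4.55 in DKO_TG (log2 change 1.32 ± 0.18 SE, adjusted p = 0.0140 in limma). Sorl1, a sorting receptor of endosomes, read 1.59, 1.67 and 1.33 RPKM in DKO and 5.56, 3.61 and 4.05 in DKO_TG (log2 change 1.26 ± 0.16 SE, adjusted p = 0.0124 in limma). None of these groups overlapped. The microRNA gene Mir6993 was called on few reads, 5, 6 and 14 in DKO and 24, 25 and 19 in DKO_TG (log2 change 1.68 ± 0.25 SE, adjusted p = 0.0176 in limma). By limma the threshold was missed for Alas1 without WT replicate 2 or 3, any single DKO library or any single DKO_TG library (adjusted p up to 0.150), Tubb3 without WT replicate 3, any single DKO library or any single DKO_TG library (adjusted p up to 0.134), Cyfip2 without DKO replicate 3 or any single DKO_TG library (adjusted p up to 0.0871), Slc38a1 and Mir6993 without any single DKO_TG library (adjusted p up to 0.0759), and Sorl1 without DKO_TG replicate 3 (adjusted p up to 0.0621). No call was made either for Alas1 and Tubb3 without a filter on low values, and Sorl1 and Mir6993 in the fit of 6 libraries.

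**Figure D3:**
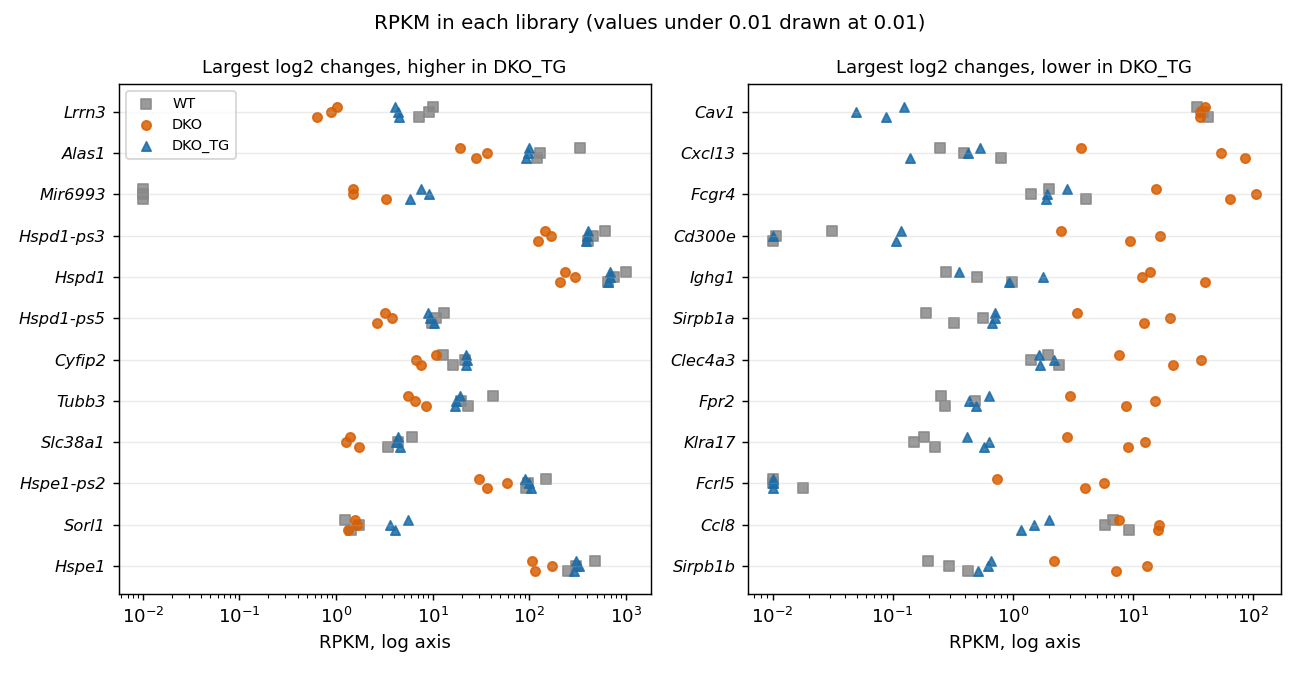
RPKM of each of the 9 libraries, on a log axis, for the genes with the largest called changes in each direction, clone names and genes averaging under 1 RPKM left out; points are single libraries and colours mark WT, DKO and DKO_TG. The DKO_TG points of each gene lie wholly on one side of the DKO points, and those of Cav1 lie farthest from both other groups.

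Genes of macrophages, complement, antibodies and antigen presentation were among the 326 lower genes. In whole ovary, fewer cells of a type and less RNA per cell cannot be told apart. The 4 defining macrophage markers were all lower. C1qa, a chain of the complement starter C1q, read 48.0, 108 and 77.9 RPKM in DKO, 24.6, 21.8 and 23.7 in DKO_TG and 40.1, 39.1 and 53.7 in WT (log2 change −1.64 ± 0.26 SE, adjusted p = 0.0205 in limma). Adgre1, which encodes F4/80, read 7.49, 12.6 and 6.71 RPKM in DKO, 3.11, 2.90 and 2.80 in DKO_TG and 2.72, 2.40 and 3.35 in WT (log2 change −1.41 ± 0.21 SE, adjusted p = 0.0176 in limma). C1qb was at −1.71 and Csf1r, the receptor of the macrophage growth factor CSF1, at −0.85 (adjusted p = 0.0161 and 0.0306 in limma). The DKO_TG libraries were under all DKO libraries for each of them, and DKO replicate 2 was the highest of the 9 libraries for each. The summed level of the 4 markers was 135 to 274 RPKM in DKO, 58.1 to 66.3 in DKO_TG and 89.4 to 121 in WT.

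Of 20 macrophage genes tested 11 were lower and 0 higher (median −1.04; 17 at an unadjusted p under 0.05). Cx3cr1, the receptor of fractalkine, read 4.23, 5.40 and 4.99 RPKM in DKO and 2.40, 2.13 and 2.26 in DKO_TG (log2 change −0.95 ± 0.14 SE, adjusted p = 0.0166 in limma). Some members did not pass: Lyz2, lysozyme of myeloid cells, read 81.0, 125 and 81.3 RPKM in DKO and 80.1, 129.8 and 123 in DKO_TG (log2 change 0.21) and Cd68, of lysosomes, was at −0.48, both with overlapping groups, and Tyrobp, a signalling adaptor, was at −1.21 (adjusted p = 0.101 in limma). The number called lower in the list was 10, 7 and 9 without WT replicate 1, 2 and 3, 14, 6 and 5 without DKO replicate 1, 2 and 3, and 0 without any 1 of the DKO_TG libraries. It was 1 in the fit of 6 libraries and 5 without a filter on low values.

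After Cav1 the largest called falls were those of Cxcl13 and Fcgr4. Cxcl13, the chemokine that draws B cells, read 3.72, 54.0 and 84.8 RPKM in DKO, 0.535, 0.419 and 0.140 in DKO_TG and 0.247, 0.389 and 0.792 in WT (log2 change −4.99 ± 0.94 SE, adjusted p = 0.0355 in limma). Fcgr4, an activating Fc receptor for IgG, read 15.4, 106 and 63.9 RPKM in DKO, 2.84, 1.94 and 1.90 in DKO_TG and 1.98, 1.41 and 4.02 in WT (log2 change −4.15 ± 0.62 SE, adjusted p = 0.0176 in limma). For both genes DKO replicate 1 was the lowest of the DKO libraries, and DKO_TG lay at the level of WT. Ccl8, a monocyte chemokine, read 7.61, 16.5 and 16.1 RPKM in DKO, 2.01, 1.51 and 1.18 in DKO_TG and 6.79, 5.82 and 9.32 in WT (log2 change −2.69 ± 0.30 SE, adjusted p = 0.00689 in limma); DKO_TG was under both other groups, and Ccl8 was called under every alternative, with a highest adjusted p of 0.0421 without DKO_TG replicate 2.

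The myeloid receptor genes Cd300e (−3.81), Sirpb1a (−3.08), Clec4a3 (−3.01), Fpr2 (−2.98), Klra17 (−2.85) and Sirpb1b (−2.58) were lower, at limma adjusted p from 0.0140 to 0.0338. In all 6, DKO replicate 1 was the lowest and DKO replicate 2 the highest DKO library: Clec4a3 read 7.69, 36.7 and 21.4 RPKM in DKO and 1.65, 2.22 and 1.68 in DKO_TG and Fpr2, a receptor for formylated peptides, read 2.98, 15.4 and 8.78 RPKM in DKO and 0.633, 0.428 and 0.496 in DKO_TG. Several belong to families of near-identical copies, so the split of reads among them is uncertain. Cd300e passed the filter through DKO alone. Of 20 C-type lectin genes 5 were lower (median −0.29) and of 7 Fc receptor genes 5 were lower (median −1.42), by lists added after these values were seen. Both list counts were 0 without DKO replicate 3, without any 1 of the DKO_TG libraries and in the fit of 6 libraries. The Fc receptor count was 3, 2 and 2 without WT replicate 1, 2 and 3, and 1 without DKO replicate 2 or without a filter on low values. The C-type lectin count was 3 without WT replicate 2 or 3 and 2 without a filter. In limma, with 1 library left out, the call was lost for Cxcl13 without any single WT library, DKO replicate 2 or 3 or any single DKO_TG library (adjusted p up to 0.139), Fcgr4, Sirpb1a, Clec4a3, Fpr2, Klra17 and C1qa without DKO replicate 3 or any single DKO_TG library (adjusted p up to 0.0996), Cd300e, C1qb, Adgre1 and Cx3cr1 without any single DKO_TG library (adjusted p up to 0.0878), Sirpb1b without any single WT library, DKO replicate 3 or any single DKO_TG library (adjusted p up to 0.134), and Csf1r without DKO replicate 1 or 2 or any single DKO_TG library (adjusted p up to 0.120). Calls also ended for Cxcl13, Sirpb1a, Sirpb1b and Csf1r without a filter on low values, Cxcl13, Fcgr4, Cd300e, Sirpb1a, Clec4a3, Fpr2, Klra17, Sirpb1b, C1qa, C1qb, Adgre1 and Csf1r in the fit of 6 libraries, Csf1r with array weights, and Cxcl13, Fcgr4, Cd300e, Sirpb1a, Clec4a3, Fpr2, Klra17 and Sirpb1b with voom on the recovered reads.

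Antibody genes were lower as well. Ighg1, the constant region of IgG1, read 13.7, 11.8 and 39.7 RPKM in DKO, 0.356, 1.78 and 0.929 in DKO_TG and 0.278, 0.5002 and 0.974 in WT (log2 change −3.77 ± 0.50 SE, adjusted p = 0.0137 in limma). Ighm, of IgM, read 9.57, 31.7 and 13.6 RPKM in DKO and 2.87, 3.37 and 4.002 in DKO_TG (log2 change −2.09 ± 0.35 SE, adjusted p = 0.0255 in limma). Igkc, of the kappa chain, read 352, 227 and 609.8 RPKM in DKO and 52.9, 103 and 124 in DKO_TG (log2 change −2.05 ± 0.39 SE, adjusted p = 0.0377 in limma). No DKO_TG library reached the lowest DKO library in any of the 3 genes. Of 134 immunoglobulin genes tested 19 were lower and 0 higher, 133 were negative, and the median was −1.08. The number lower was 13, 7 and 12 without WT replicate 1, 2 and 3, 21, 25 and 6 without DKO replicate 1, 2 and 3, and 2, 4 and 0 without DKO_TG replicate 1, 2 and 3. It was 3 in the fit of 6 libraries, 4 without a filter on low values and 31 with quantile normalization. These segments are close copies that can share reads, so they are not 134 separate observations. Fcrl5, a receptor of B cells, read 0.736, 5.76 and 4.02 RPKM in DKO and was listed at 0 in every DKO_TG library, so that it passed the filter through DKO alone (adjusted p = 0.0329 in limma). Cd79b, of the B cell receptor, read 1.48, 4.82 and 3.17 RPKM in DKO and 0.329, 0.606 and 0.421 in DKO_TG (log2 change −1.84 ± 0.34 SE, adjusted p = 0.0346 in limma). These calls depended on single libraries. With 1 library left out, limma no longer called Ighg1 without DKO_TG replicate 1 or 3 (adjusted p up to 0.0670), Ighm without WT replicate 2, DKO replicate 3 or any single DKO_TG library (adjusted p up to 0.0936), Igkc without any single WT library, DKO replicate 1 or 3 or any single DKO_TG library (adjusted p up to 0.105), Fcrl5 without any single WT library, DKO replicate 2 or 3 or any single DKO_TG library (adjusted p up to 0.126), and Cd79b without WT replicate 2 or 3, DKO replicate 2 or 3 or any single DKO_TG library (adjusted p up to 0.134). No call was made either for Ighm, Igkc, Fcrl5 and Cd79b without a filter on low values, all of these genes in the fit of 6 libraries, Igkc with array weights, and Fcrl5 and Cd79b with voom on the recovered reads.

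Genes of complement and antigen presentation fell too. C3, the central component, read 9.90, 23.7 and 32.5 RPKM in DKO, 2.89, 6.76 and 3.15 in DKO_TG and 14.9, 10.5 and 15.6 in WT (log2 change −2.18 ± 0.43 SE, adjusted p = 0.0430 in limma). C4b, of the classical pathway, read 9.44, 17.8 and 24.2 RPKM in DKO, 3.52, 3.13 and 2.35 in DKO_TG and 5.15, 3.52 and 4.25 in WT (log2 change −2.25 ± 0.30 SE, adjusted p = 0.0140 in limma), and its DKO_TG libraries lay under or within the range of WT. Of 16 complement genes in a list added after these values were seen, which shares the 3 C1q chains with the macrophage list, 11 were lower and 0 higher (median −0.76). This count was 6 without DKO replicate 3, 0 without any 1 of the DKO_TG libraries, 1 in the fit of 6 libraries and 7 without a filter on low values. Cd74, the invariant chain of MHC class II, read 204, 215 and 137 RPKM in DKO, 82.4, 61.0 and 86.5 in DKO_TG and 127, 120.3 and 199.9 in WT (log2 change −1.26 ± 0.25 SE, adjusted p = 0.0426 in limma). H2-Aa, H2-Ab1 and H2-Eb1, which encode class II chains, were at −1.19, −1.22 and −1.22, and 6 of 9 class II genes were lower (median −1.12). The class II count was 1 without WT replicate 1 or DKO replicate 1. It was 4 without DKO replicate 3, and 0 without WT replicate 2, without DKO replicate 2, without any 1 of the DKO_TG libraries, in the fit of 6 libraries and without a filter. Here DKO replicate 3, not replicate 1, was the lowest DKO library for all 4 named genes. Limma, with 1 library left out, did not call C3 without any single WT library, DKO replicate 2 or 3 or any single DKO_TG library (adjusted p up to 0.162), C4b without any single DKO_TG library (adjusted p up to 0.0692), Cd74, H2-Ab1 and H2-Eb1 without WT replicate 1 or 2, DKO replicate 1 or 2 or any single DKO_TG library (adjusted p up to 0.153), and H2-Aa without WT replicate 1 or 2, any single DKO library or any single DKO_TG library (adjusted p up to 0.173). Calls also ended for H2-Aa with a pseudocount of 0.1 or with a filter at an RPKM of 1, C3, Cd74, H2-Aa, H2-Ab1 and H2-Eb1 without a filter on low values, all of these genes in the fit of 6 libraries, and Cd74, H2-Aa, H2-Ab1 and H2-Eb1 with array weights.

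Of 10 other leukocyte markers 2 were lower, Ptprc (CD45, on all leukocytes) and Cd79b (median −1.26). Ptprc read 1.98, 4.56 and 3.48 RPKM in DKO and 0.961, 0.813 and 0.905 in DKO_TG (log2 change −1.4 ± 0.22 SE, adjusted p = 0.0207 in limma). Of 10 inflammation genes 1 was lower, the adhesion gene Icam1 (2.37, 3.09 and 3.10 RPKM in DKO and 1.73, 1.70 and 1.63 in DKO_TG, log2 change −0.61 ± 0.11 SE, adjusted p = 0.0329 in limma; list median −0.45). Interferon-stimulated genes were all negative, 19 of 19, with a median of −0.44, but only the GTPase gene Gbp2 passed (17.7, 23.1 and 17.2 RPKM in DKO and 11.03, 9.20 and 8.57 in DKO_TG, log2 change −0.97 ± 0.19 SE, adjusted p = 0.0428 in limma), 8 of them at an unadjusted p under 0.05. By limma the threshold was missed for Ptprc without DKO replicate 3 or any single DKO_TG library (adjusted p up to 0.0976), Icam1 without WT replicate 2 or 3, DKO replicate 2 or 3 or any single DKO_TG library (adjusted p up to 0.139), and Gbp2 without WT replicate 1, any single DKO library or any single DKO_TG library (adjusted p up to 0.167). No call was made either for all of these genes without a filter on low values or in the fit of 6 libraries, and Gbp2 with array weights.

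**Figure D4:**
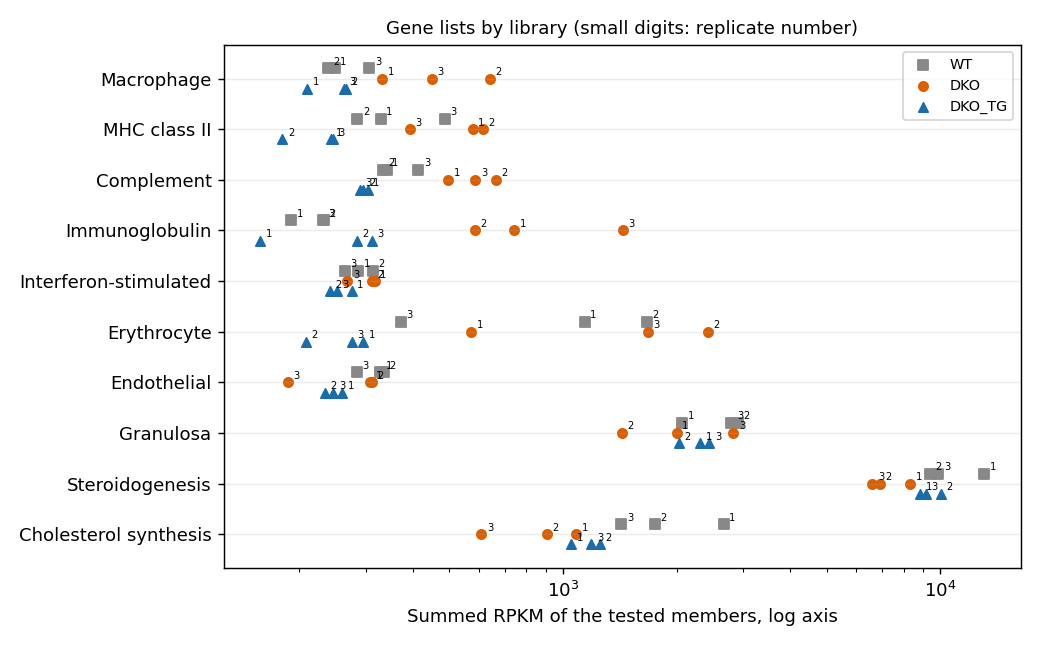
RPKM summed over the tested genes of each list, on a log axis; each point is 1 of the 9 libraries, with shape and colour for WT, DKO and DKO_TG and a small digit for the replicate number. The DKO_TG sums lie under all DKO sums for the macrophage, MHC class II, complement, immunoglobulin and erythrocyte lists. They lie above all DKO sums for the steroidogenesis list. DKO and DKO_TG overlap for the interferon-stimulated, endothelial, granulosa and cholesterol synthesis lists.

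Erythrocyte genes did not pass the test, and their levels are given beside those of the immune genes. The summed level of 5 erythrocyte genes was 562 to 2409 RPKM in DKO, 198 to 285 in DKO_TG and 361 to 1657 in WT, with DKO replicate 1 the lowest of DKO. Hba-a1, an alpha globin gene, read 121, 507 and 308 RPKM in DKO, 57.6, 42.1 and 53.5 in DKO_TG and 253, 365 and 78.3 in WT and did not pass (log2 change −2.38 ± 0.62 SE, adjusted p = 0.0959 in limma), nor did Hbb-bs (−2.43, adjusted p = 0.115); of 6 erythrocyte genes tested 0 passed the adjusted and 5 an unadjusted p under 0.05 (median −2.36). Without DKO replicate 1 limma called 5 of the 6 lower. DKO replicate 1 was the lowest DKO library in 194 of the 326 lower genes, 59.5%, against 34.8% of all genes. The part of blood, or of that library, in the fall of the immune genes was not tested.

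A block of neighbouring genes on chromosome 17 was lower. Between 6256860 and 7979824 (mm10) 11 genes were called lower, of 28 tested between 6 and 8 Mb, with changes from −0.51 to −1.02 and a median of −0.89. The Dynlt1 genes encode a light chain of the dynein motor; Dynlt1b read 442, 557 and 415 RPKM in DKO, 228, 234 and 241 in DKO_TG and 629, 593 and 442 in WT (log2 change −0.99 ± 0.17 SE, adjusted p = 0.0277 in limma). Dynlt1a, Dynlt1c and Dynlt1f were at −1.02, −0.90 and −0.89. The DKO_TG libraries were the lowest of the 9 for Dynlt1b. Rsph3b and Rsph3a, radial spoke genes of cilia, were at −0.76 and −0.82. Tagap1, a GTPase-activating gene, read 12.7, 13.6 and 14.6 RPKM in DKO, 6.89, 6.89 and 7.44 in DKO_TG and 5.42, 4.46 and 5.77 in WT (log2 change −0.90 ± 0.10 SE, adjusted p = 0.00926 in limma), so DKO_TG was nearer to WT there. Tmem181a, Tmem181b-ps, Tmem181c-ps and Tagap completed the 11, at −0.51, −0.92, −0.72 and −0.69. In each of them the DKO_TG mean was also nearer to WT than to DKO. Tmem181b-ps averaged 15.9 RPKM in DKO, 8.13 in DKO_TG and 5.69 in WT. The DKO_TG means of the Dynlt1 and Rsph3 genes lay under those of both other groups. The 11 genes are tandem copies, and how the authors' counting split reads among them is not known.

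Other genes lay among them and did not pass. Rnaset2b, an RNase gene directly after Tagap1, read 1.60, 1.33 and 1.94 RPKM in DKO and 1.08, 0.790 and 0.640 in DKO_TG without overlap (log2 change −0.67, adjusted p = 0.105 in limma). Rps6ka2, the next gene tested, was at 0.58 (adjusted p = 0.115 in limma), the long intergenic RNA Gm26848 at −0.32 and Ezr, of the cell cortex, at −0.05. Gtf2h5, which starts before the stretch, was at 0.19. Of the 11 genes limma called 10, 8 and 10 without WT replicate 1, 2 and 3, 10, 7 and 7 without DKO replicate 1, 2 and 3, 2 without any 1 of the DKO_TG libraries, 5 in the fit of 6 libraries and 7 without a filter on low values.

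Farther along the chromosome, near 15 Mb, 4 adjoining genes were lower. 9030025P20Rik read 20.9, 18.02 and 20.6 RPKM in DKO, 7.38, 6.99 and 7.65 in DKO_TG and 5.197, 5.11 and 5.08 in WT (log2 change −1.37 ± 0.08 SE, adjusted p = 0.000319 in limma). Gm3435 read 24.8, 23.3 and 26.04 RPKM in DKO, 10.8, 10.2 and 10.5 in DKO_TG and 10.01, 9.68 and 10.1 in WT (log2 change −1.20 ± 0.07 SE, adjusted p = 0.000319 in limma). Ermard, which encodes a membrane protein of the endoplasmic reticulum, read 12.1, 10.2 and 11.4 RPKM in DKO, 5.17, 4.99 and 5.33 in DKO_TG and 3.31, 3.21 and 3.23 in WT (log2 change −1.05 ± 0.08 SE, adjusted p = 0.00113 in limma). In all 3 every DKO_TG library lay under every DKO and above every WT library, closest to WT in Gm3435. Gm3448 was at −1.03; it overlaps Gm3435 and Ermard on the other strand, so their reads cannot be told apart where they overlap. The next gene, Phf10, was at 0.18 and did not pass. On the same chromosome the zinc finger gene Zfp40 was higher (3.19, 2.30 and 2.79 RPKM in DKO and 4.58, 4.63 and 4.67 in DKO_TG, log2 change 0.66 ± 0.11 SE, adjusted p = 0.0258 in limma), as was Zfp758 (0.55, adjusted p = 0.0425).

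**Figure D5:**
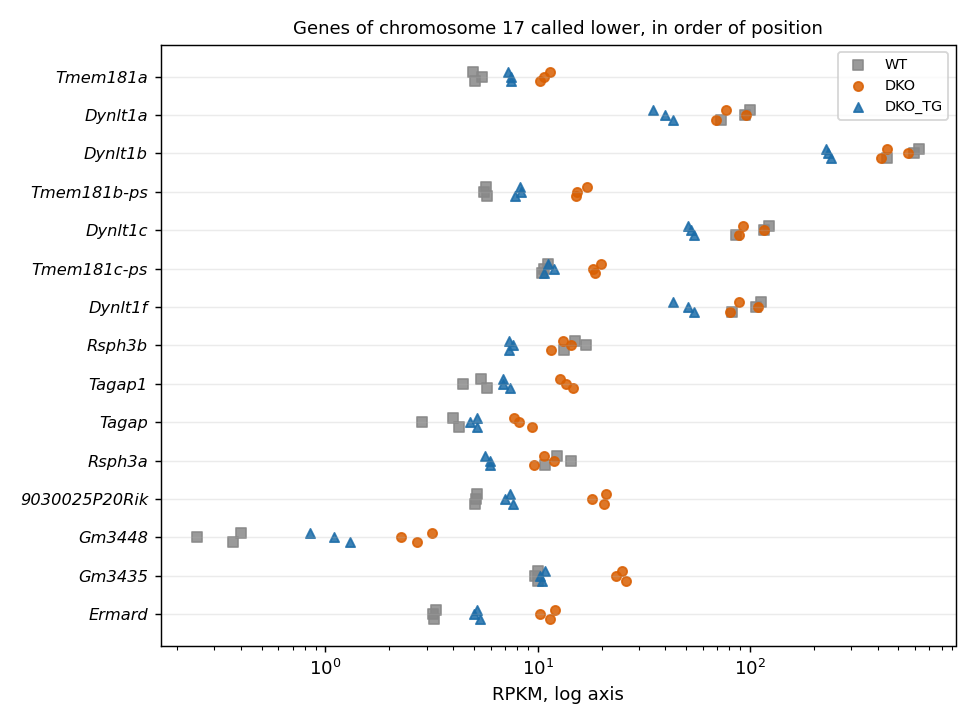
RPKM of each of the 9 libraries, on a log axis, for the 11 called genes between 6 and 8 Mb of chromosome 17 and the 4 called genes near 15 Mb, in the order of their positions; points are single libraries and colours mark WT, DKO and DKO_TG. In every gene the DKO_TG points lie under the DKO points.

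On chromosome 12 Zfp125 read 3.21, 2.63 and 3.14 RPKM in DKO, 0.481, 0.442 and 0.601 in DKO_TG and 0.204, 0.244 and 0.226 in WT (log2 change −1.79 ± 0.11 SE, adjusted p = 0.000319 in limma), lower in DKO_TG. The gene models Gm38699, Gm49377 and Gm9292 on that chromosome were higher, at 1.24, 1.25 and 1.35. Gm9292, with 2, 9 and 3 reads in DKO and 31, 30 and 43 in DKO_TG, passed the filter through DKO_TG alone. Gm38699 read 0.427, 0.374 and 0.510 RPKM in DKO, 1.73, 1.83 and 1.56 in DKO_TG and 1.13, 0.951 and 1.499 in WT (log2 change 1.24 ± 0.14 SE, adjusted p = 0.00689 in limma). By chromosome, 4.37% of the genes tested on chromosome 17 and 4.15% on chromosome 6 were lower, against 1.76% of all. These shares include immune genes counted above. On chromosome 6 they include 11 immunoglobulin segments at 68 to 70 Mb. On chromosome 17 they include 9 lower genes at 34 to 36 Mb, among them C4b and H2-Aa. Of 1267 windows of 2 Mb that held a tested gene, 14 held 4 or more lower genes and 1 held 4 or more higher ones. Among the 14 were the windows of Cav1 and of both chromosome 17 blocks. Others held clusters of immune genes, such as Fc receptor, C-type lectin and C1q genes. In limma, with 1 library left out, the call was lost for Gm3448 without DKO replicate 3 or any single DKO_TG library (adjusted p up to 0.0719), Zfp40 without WT replicate 2, DKO replicate 3 or any single DKO_TG library (adjusted p up to 0.122), Zfp758 without WT replicate 2 or 3, DKO replicate 2 or 3 or any single DKO_TG library (adjusted p up to 0.169), and Gm9292 without DKO_TG replicate 3 (adjusted p up to 0.0548). Calls also ended for Zfp40 and Zfp758 without a filter on low values or with TPM, and Gm3448, Zfp40 and Zfp758 in the fit of 6 libraries.

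Further genes were called under every alternative. Rgs11, a regulator of G protein signalling known from the retina, read 24.4, 19.6 and 22.6 RPKM in DKO, 8.91, 8.04 and 9.68 in DKO_TG and 0.109, 0.159 and 0.167 in WT. The DKO_TG libraries lay under DKO and far above WT (log2 change −1.27 ± 0.11 SE, adjusted p = 0.00159 in limma). Ggt5, an enzyme of leukotriene and glutathione breakdown, read 14.9, 11.8 and 13.0 RPKM in DKO, 4.76, 5.43 and 5.51 in DKO_TG and 7.65, 8.58 and 8.61 in WT (log2 change −1.25 ± 0.11 SE, adjusted p = 0.00161 in limma), and DKO_TG lay under both other groups. Ccr2, the chemokine receptor of monocytes, read 4.72, 4.36 and 5.11 RPKM in DKO, 1.64, 1.55 and 1.90 in DKO_TG and 0.843, 1.10 and 1.34 in WT (log2 change −1.25 ± 0.13 SE, adjusted p = 0.00584 in limma), and DKO_TG lay between DKO and WT.

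Lgi3, a secreted protein of nerve tissue, read 3.85, 4.04 and 3.35 RPKM in DKO and 1.44, 1.16 and 1.31 in DKO_TG (log2 change −1.24 ± 0.12 SE, adjusted p = 0.00448 in limma). Pxylp1, a phosphatase of proteoglycan synthesis, read 1.5, 1.45 and 1.32 RPKM in DKO and 0.453, 0.541 and 0.480 in DKO_TG (log2 change −0.96 ± 0.10 SE, adjusted p = 0.00689 in limma). Kansl3, of the NSL chromatin complex, read 15.3, 13.8 and 15.4 RPKM in DKO, 8.66, 8.54 and 8.47 in DKO_TG and 9.14, 9.12 and 9.67 in WT (log2 change −0.76 ± 0.07 SE, adjusted p = 0.00445 in limma); its DKO_TG libraries lay just under WT and well under DKO. Tmem255a, a membrane protein, was at −1.03 and Rec8, the meiotic cohesin subunit, at −1.66. Rec8 and the gene model Gm48293, at −2.21, passed the filter through DKO alone. None of these genes overlapped between DKO and DKO_TG, and each was chosen for the text by its calls.

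Of 19 LXR target genes 0 were higher and 1 was lower in DKO_TG (median 0.06); at an unadjusted p under 0.05, 3 were higher and 3 lower. Abca1 and Abcg1, the cholesterol efflux pumps that are its best known targets, did not pass. Abca1 read 73.8, 58.3 and 76.2 RPKM in DKO, 99.9, 90.1 and 91.3 in DKO_TG and 79.1, 32.2 and 39.5 in WT (log2 change 0.44 ± 0.29 SE, adjusted p = 0.506 in limma). Abcg1 read 2.41, 5.62 and 3.96 RPKM in DKO, 2.37, 3.07 and 2.55 in DKO_TG and 2.37, 2.93 and 3.04 in WT (log2 change −0.45 ± 0.24 SE, adjusted p = 0.405 in limma). Srebf1, which encodes the regulator of fatty acid synthesis SREBP1, read 16.8, 15.1 and 15.2 RPKM in DKO, 14.6, 17.9 and 16.9 in DKO_TG and 16.96, 16.0 and 13.5 in WT (log2 change 0.07). The 1 called gene was Pltp, the phospholipid transfer protein, which read 7.14, 11.4 and 7.72 RPKM in DKO, 3.84, 3.81 and 3.53 in DKO_TG and 6.51, 6.23 and 8.10 in WT (log2 change −1.10 ± 0.17 SE, adjusted p = 0.0181 in limma) and so lay under both other groups. With 1 library left out, limma no longer called Pltp without any single DKO_TG library (adjusted p up to 0.0914). No call was made either for Pltp in the fit of 6 libraries.

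Of 25 genes of cholesterol synthesis and uptake 0 passed and 3 were higher at an unadjusted p under 0.05. All 25 were positive, with a median of 0.34, against 10329 positive among all 18530 genes. Of 16 fatty acid synthesis genes 0 passed and 4 were higher at an unadjusted p under 0.05 (median 0.40); Fasn read 30.6, 25.4 and 32.2 RPKM in DKO and 34.1, 31.2 and 35.1 in DKO_TG (log2 change 0.19) and Scd2, the desaturase, was at 0.58 (adjusted p = 0.147 in limma). Of 15 lipid storage genes 0 passed at an adjusted or unadjusted p under 0.05 (median 0.18).

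Steroid synthesis gave 0 of 17 genes past the adjusted and 3 higher past an unadjusted p under 0.05 (median 0.16). Cyp17a1, the enzyme that makes androgens in theca cells, read 95.1, 59.0 and 200.2 RPKM in DKO, 955, 689.9 and 612 in DKO_TG and 956, 164 and 190.2 in WT. Every DKO_TG library lay at least 612 RPKM and every DKO library at most 200.2, but WT replicate 1 was as high as DKO_TG (log2 change 2.82 ± 0.67 SE, adjusted p = 0.0714 in limma). Limma called it with quantile normalization, with TPM, with array weights and without WT replicate 1. Star, which carries cholesterol into mitochondria, read 282, 200.2 and 101 RPKM in DKO and 286, 253 and 299 in DKO_TG (log2 change 0.64 ± 0.38 SE, adjusted p = 0.462 in limma). Cyp11a1, which cuts the cholesterol side chain, read 1688, 1593 and 978 RPKM in DKO and 2344, 2650.0 and 2511 in DKO_TG without overlap (log2 change 0.86 ± 0.26 SE, adjusted p = 0.154 in limma), Scarb1, the HDL receptor, was at 0.81 and Cyp19a1, aromatase, at 0.75.

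None of the follicle lists held a call. Of 20 granulosa cell markers 0 passed (2 lower at an unadjusted p under 0.05). Their median of 0.03 became −0.03 with quantile normalization. Inha, the inhibin alpha chain of granulosa cells, read 1193, 874 and 1640.0 RPKM in DKO and 1459, 1281 and 1569 in DKO_TG (log2 change 0.26). Wt1, of granulosa and surface cells, read 8.57, 10.2 and 9.65 RPKM in DKO and 6.597, 6.14 and 4.56 in DKO_TG without overlap and just missed the threshold (log2 change −0.68 ± 0.15 SE, adjusted p = 0.0510 in limma). It was called with a pseudocount of 1, with quantile normalization, with TPM or TMM rescaling and among protein-coding genes only. No fit with 1 library left out called it. Of 14 theca and interstitial markers 0 passed (3 higher and 3 lower unadjusted, median −0.11). Of 12 luteal markers 0 passed (2 higher unadjusted, median 0.59); Lhcgr, the LH receptor, read 104, 70.4 and 47.1 RPKM in DKO and 122, 98.6 and 109 in DKO_TG (log2 change 0.64 ± 0.26 SE, adjusted p = 0.272 in limma). Of 22 oocyte markers 0 passed (1 lower unadjusted, median 0.11), and of 8 tested genes of ovulation and cumulus expansion 0 passed at either threshold.

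Vessel and stroma genes gave 1 call each beside Cav1. Of 21 endothelial markers 1 was lower (median −0.08): Vwf, the von Willebrand factor, read 2.18, 1.98 and 2.29 RPKM in DKO, 0.813, 0.806 and 0.917 in DKO_TG and 1.38, 0.774 and 0.966 in WT (log2 change −0.98 ± 0.14 SE, adjusted p = 0.0173 in limma). Kdr, the main VEGF receptor, read 10.8, 10.1 and 6.92 RPKM in DKO and 12.1, 9.67 and 11.5 in DKO_TG and Vegfa, its ligand, read 44.2, 36.7 and 24.4 RPKM in DKO, 53.5, 42.6 and 56.7 in DKO_TG and 11.5, 11.02 and 7.92 in WT; their log2 changes were 0.26 and 0.56, neither called. Of 24 genes of vascular permeability only Cav1 passed (median −0.10). Of 17 fibroblast and matrix genes 1 was lower (5 unadjusted, median −0.29): Dcn, the proteoglycan decorin, read 89.2, 100.3 and 108 RPKM in DKO, 56.8, 59.8 and 56.2 in DKO_TG and 83.4, 77.9 and 96.2 in WT (log2 change −0.78 ± 0.11 SE, adjusted p = 0.0169 in limma). Of 13 smooth muscle markers 0 passed (1 lower unadjusted, median −0.14). Of 11 surface epithelium markers 0 passed, 5 were lower at an unadjusted p under 0.05 and all 11 were negative (median −0.68); the sum of its 4 defining markers was 10.6 to 15.8 RPKM in DKO and 2.43 to 7.68 in DKO_TG. Limma, with 1 library left out, did not call Vwf and Dcn without DKO replicate 3 or any single DKO_TG library (adjusted p up to 0.0895). Calls also ended for Dcn in the fit of 6 libraries.

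Clock genes gave 3 lower of 17 tested (median −0.20), in a list added after the values were seen. Dbp and Tef, which encode output factors of the circadian clock, read 8.94, 8.11 and 10.8 RPKM in DKO, 4.55, 5.30 and 3.57 in DKO_TG and 4.58, 3.85 and 2.92 in WT (log2 change −0.98 ± 0.18 SE, adjusted p = 0.0346 in limma) and 14.9, 11.9 and 17.1 RPKM in DKO and 10.01, 9.43 and 7.97 in DKO_TG (log2 change −0.65 ± 0.14 SE, adjusted p = 0.0493 in limma). Per3, a period gene, read 4.39, 3.16 and 4.52 RPKM in DKO, 2.28, 2.18 and 1.52 in DKO_TG and 0.298, 0.468 and 0.536 in WT (log2 change −0.86 ± 0.18 SE, adjusted p = 0.0465 in limma). All 3 lay under DKO in every DKO_TG library. The labels give no hour of day for the samples. By limma the threshold was missed for Dbp without WT replicate 2, any single DKO library or any single DKO_TG library (adjusted p up to 0.134), and Tef and Per3 without any single WT library, DKO replicate 1 or 3 or any single DKO_TG library (adjusted p up to 0.186). No call was made either for Tef and Per3 with a pseudocount of 0.1 or with TPM, all of these genes without a filter on low values or in the fit of 6 libraries, and Tef with a filter at an RPKM of 1.

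Enzymes that break down branched-chain amino acids gave 3 higher of 19 tested and 10 at an unadjusted p under 0.05 (median 0.23, 16 positive), in another list added after the values were seen. Dbt, a subunit of the branched-chain ketoacid dehydrogenase, read 14.5, 14.4 and 14.0 RPKM in DKO, 20.5, 21.4 and 19.9 in DKO_TG and 16.6, 15.4 and 14.9 in WT (log2 change 0.51 ± 0.08 SE, adjusted p = 0.0173 in limma). Mccc1, of leucine breakdown, was at 0.49 and Acad8, of valine breakdown, at 0.43. The DKO_TG libraries lay wholly above the DKO libraries in all 3. In limma, with 1 library left out, the call was lost for Dbt without DKO replicate 3 or any single DKO_TG library (adjusted p up to 0.0873), and Mccc1 and Acad8 without WT replicate 2 or 3, any single DKO library or any single DKO_TG library (adjusted p up to 0.202). Calls also ended for Mccc1 and Acad8 with a pseudocount of 0.1 or without a filter on low values, Acad8 with a filter at an RPKM of 1 or with voom on the recovered reads, and all of these genes in the fit of 6 libraries or with TPM.

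The remaining lists held no call. Gonadotropin and cAMP signalling had 9 of 18 genes higher and 1 lower at an unadjusted p under 0.05 (median 0.31), and the immediate-early gene Nr4a1 read 6.63, 9.60 and 6.53 RPKM in DKO and 13.8, 16.8 and 16.1 in DKO_TG (log2 change 1.00 ± 0.28 SE, adjusted p = 0.120 in limma). ER stress genes had 4 of 17 higher and 1 lower unadjusted (median 0.18), led by Chac1, a glutathione-degrading enzyme induced by ATF4 (1.05, 2.24 and 1.77 RPKM in DKO and 7.47, 4.84 and 4.73 in DKO_TG, log2 change 1.51 ± 0.37 SE, adjusted p = 0.0826 in limma). Respiratory chain genes had 2 of 25 higher unadjusted (median 0.15) and apoptosis genes 2 of 18 lower (median −0.04). Cell cycle genes had 0 of 27 at either threshold, with 24 positive and a median of 0.18. Of the immediate-early list 0 of 14 passed, of glycolysis and hypoxia 0 of 24, of nuclear-retained RNAs 0 of 8, of testis and Sertoli markers 0 of 8, of oviduct and Schwann cell markers 0 of 5 each and of fat cell markers 0 of 4; at an unadjusted p under 0.05 these gave 3, 1, 4, 2, 1, 0 and 1 genes.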

How the data were processed

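RNA of whole ovary was sequenced in 3 libraries each of WT, DKO and DKO_TG. The authors deposited 1 table of RPKM values per gene; per the submitters' processing notes the build was mm10 and the tools were HISAT2 2.1.0, cutadapt, DESeq2 1.2.8 and HTSeq 0.5.4p5, and whether counting used the strand is not given in the sources used here. RPKM are not counts, so the test was limma 3.58.1 (R 4.3.3; lmFit, eBayes with a trend) on log2(RPKM + 0.5), with all 9 libraries in 1 fit and Benjamini-Hochberg adjustment over 18530 genes. Fold changes are on that scale, which understates changes of low genes. The steps of the low values gave whole reads for 97.8% of values above 0 (53992 genes, within 0.01 read or a relative 1e-06), used for depth and for 1 alternative (voom, 71 higher and 239 lower of 17996 genes). On simulated data for this comparison (18291 genes) 69% of 2-fold and 88% of 4-fold changes were recovered with 6 false calls. The simulation gave each gene 1 spread for all groups, drew genes independently and changed only genes averaging at least 1 RPKM. In the data the median spread was 0.0939 in DKO_TG and 0.189 in DKO, and genes are not independent. These rates may therefore not hold for the data. Positions came from GENCODE, matched for 54723 genes, and promoters from RefSeq. Intervals and SEs cover the spread between libraries only.

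The genes named are both LXR genes, Amh, the 12 largest called changes in each direction (mean at least 1 RPKM, no overlap, no clone name), and from each list up to 3 called genes or the 1 with the smallest p; not all of these are reported here. All other named genes were chosen after their values were seen. The members and lists were chosen with earlier results of these data known. Alternatives covered the pseudocount, the filter, the scaling, array weights, the libraries in the fit and a replicate block; leaving out WT libraries was added after seeing the data.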

Additional observations from a re-analysis of the deposited data

How the results depend on the processing

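Against 419 calls (93 higher, 326 lower), limma gave 236 without a filter on low values (69 higher, 167 lower) and 57 in the fit of 6 libraries (19 higher, 38 lower). Quantile normalization gave 140 higher and 477 lower. With 1 library left out the counts ran from 34 to 500 in all, from 10 to 112 higher and from 24 to 394 lower. The same replicate numbers in DKO and DKO_TG did not pair the libraries (r of their deviations −0.223, 0.146 and −0.0614), and a fit with the replicate number as a block gave 118 calls (26 higher, 92 lower). Named genes that were called did not overlap between the groups, so leaving out libraries could not turn their sign. Of the alternative values of these genes, 1545 kept their call, 510 lost it and 0 turned sign. Of those not called, 1307 stayed so, 41 passed and 2 turned sign, Nr1h3 (from −0.27 without DKO replicate 1 to 0.0144 without DKO replicate 2) and Amh (from −0.48 without DKO replicate 2 to 0.00345 without DKO replicate 1). The cause of these changes was not tested. A fit with fewer libraries has fewer degrees of freedom, and this holds alike for whichever 1 library is left out. The fits differ in other ways. Leaving out a DKO or DKO_TG library makes a compared group smaller, and leaving out a WT library does not. The median spread was 0.0939 in DKO_TG and 0.189 in DKO, so the pooled spread also depends on which library is left out. Rescaling moved the median change of all genes by under 0.1 and turned no sign in the cholesterol, interferon-stimulated or surface epithelium lists. Signs did turn in others. The granulosa list went from 11 positive and 9 negative to 7 and 13 with quantile normalization. In the neuronal list 1 of 6 genes became negative with TPM. With 3 libraries a group and the same spread in all groups, 69% of simulated 2-fold changes were recovered, so smaller changes can be missed.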
